A study of Rattus norvegicus with 6 samples.

Results

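The red cell miRNAs miR-451, miR-144 and miR-486 were examined in rat lung as a gauge of how much blood each sample held. Every listed name made of miR-451, miR-144 or miR-486, with or without an arm suffix, was taken, which gave 5 of the 693 miRNAs listed in all. In the table they carry the rat prefix, as rno-miR-451-5p, rno-miR-451-3p, rno-miR-144-3p, rno-miR-144-5p and rno-miR-486. The libraries came from 3 lungs after ischemia reperfusion (IR) and 3 lungs after sham operation, 1 library each, from male rats of the Sprague-Dawley strain that were 7 to 8 weeks old. The model used urethane anesthesia, ventilation and a left thoracotomy. IR rats had the left hilum closed for 45 min before flow was restored, and sham rats, labelled as controls, were operated on without closing the hilum. How long flow had been restored, which lung was taken and whether blood was flushed from it are not stated in the labels or methods.

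Small RNA was ligated to adapters and sequenced. The read totals ran from 3775663 to 11248166 over the IR libraries and from 7459979 to 10718899 over the sham libraries, so that 3 reads stood for 0.267 to 0.795 TPM (reads in every 1000000 listed miRNA reads). Levels below are in CPM, the same quantity after TMM normalization, in which a scaling factor per library brings the bulk of miRNAs to a common level. IR was set against sham with edgeR's quasi-likelihood test over the 418 miRNAs with enough reads, and a Benjamini-Hochberg adjusted p under 0.05 was called. Sham replicate 3 stood apart by its miR-21-5p, at 24.2% of reads (95% exact interval 24.19% to 24.24%, counting error only) against 9.66% to 13.5% in the other libraries.

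miR-144 and miR-451 are made from a single primary transcript, which the transcription factor GATA-1 switches on in mouse erythroid cells, and both become abundant as red cells mature. miR-486 is the other dominant miRNA of red cells. In human and mouse it lies within the ankyrin gene Ank1, and it is also made in striated muscle. Mature red cells keep these miRNAs after the nucleus is lost, so that whole tissue carries them with its blood.

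The sequences are shown because the arms of the same hairpins gave very different read numbers. Rat sequences in RefSeq (build GRCr8) matched 4 of the 5 names, and miR-486 is named only. The mature forms are given with the seed, bases 2 to 8, in capitals.
miR-451-5p: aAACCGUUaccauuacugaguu
miR-451-3p: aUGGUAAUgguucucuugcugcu
miR-144-3p: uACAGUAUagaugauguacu
miR-144-5p: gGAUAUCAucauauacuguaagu
The 4 seeds differ from each other, and 0 other listed miRNAs with a RefSeq sequence share any of them. The Mir144 hairpin lies at chr10:63459397-63459479 and the Mir451a hairpin at chr10:63459569-63459640, both on the plus strand of GRCr8, which is the build of the reference and not a build named by the authors. They are 89 bases apart, between the genes Flot2 and Eral1. In the hairpins below, capitals mark miR-451-5p in the first, and both arms of miR-144 in the second.
Mir451a: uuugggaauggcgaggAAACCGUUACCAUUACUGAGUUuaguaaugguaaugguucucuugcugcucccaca
Mir144: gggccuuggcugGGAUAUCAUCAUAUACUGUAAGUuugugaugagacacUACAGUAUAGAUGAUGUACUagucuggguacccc
In a structure predicted with RNAfold, miR-451-5p took bases 17 to 38 of its 72-base hairpin, including all 4 bases of the end loop at 35 to 38. The arms of miR-144 stood at 13 to 35 and 50 to 69 of 83 bases, on either side of an end loop at 38 to 43, with 0 bases inside it. miR-451 is known to be cut by AGO2 without Dicer, and most miRNAs, miR-144 among them, are cut from the stem by Dicer.

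miR-451-5p, which restrains 14-3-3ζ in mouse red cell precursors, was the most abundant of the 5, at position 58 of the 693 miRNAs by mean TPM. It was at 1156, 1804 and 1034 CPM in the IR lungs, against 891, 1138 and 2566 CPM in the sham lungs. The highest and the lowest lung were both sham, and the IR lungs lay between them. The mean was 1331 ± 414 CPM in IR and 1532 ± 904 CPM in sham (SD, n = 3 each). The log2 fold change of IR against sham was -0.20 (standard error 0.39, 95% interval -1.11 to 0.70), with an adjusted p = 0.764 from edgeR, which did not pass. Its sign rested on single libraries, with 0.38 without sham replicate 3 and 0.01 without IR replicate 3.

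miR-486, known to act on FOXO1 in muscle, was next in level, at position 99. It was at 345, 245 and 327 CPM in the IR lungs, against 258, 591 and 1103 CPM in the sham lungs. Sham replicate 1 lay within the IR range and the other sham lungs lay above it. The mean was 306 ± 53.2 CPM in IR and 651 ± 426 CPM in sham (SD, n = 3 each). The log2 fold change was -1.09 (standard error 0.45), with an unadjusted p of 0.0408 and an adjusted p = 0.166 from edgeR, which did not pass.

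miR-144-3p, the usual guide arm of miR-144, which is known to repress the oxidative stress factor NRF2 in human cells, was at position 161. It was at 62.0, 46.7 and 89.8 CPM in the IR lungs, against 48.4, 209 and 237 CPM in the sham lungs. Sham replicate 1 again lay among the IR lungs, and sham replicates 2 and 3 were above all of them. The mean was 66.2 ± 21.8 CPM in IR and 165 ± 102 CPM in sham (SD, n = 3 each). The log2 fold change, -1.31 (standard error 0.53), was the lowest of the 4 tested members, with an unadjusted p of 0.0389 and an adjusted p = 0.163 from edgeR, which did not pass.

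miR-144-5p, the other arm of that hairpin, was at position 185. It was at 50.6, 59.6 and 42.1 CPM in the IR lungs, against 35.8, 81.0 and 141 CPM in the sham lungs. All 3 IR lungs lay above sham replicate 1 and below the other sham lungs. The log2 fold change was -0.77 (standard error 0.44, 95% interval -1.77 to 0.24), with an adjusted p = 0.296 from edgeR.

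**Figure D1:**
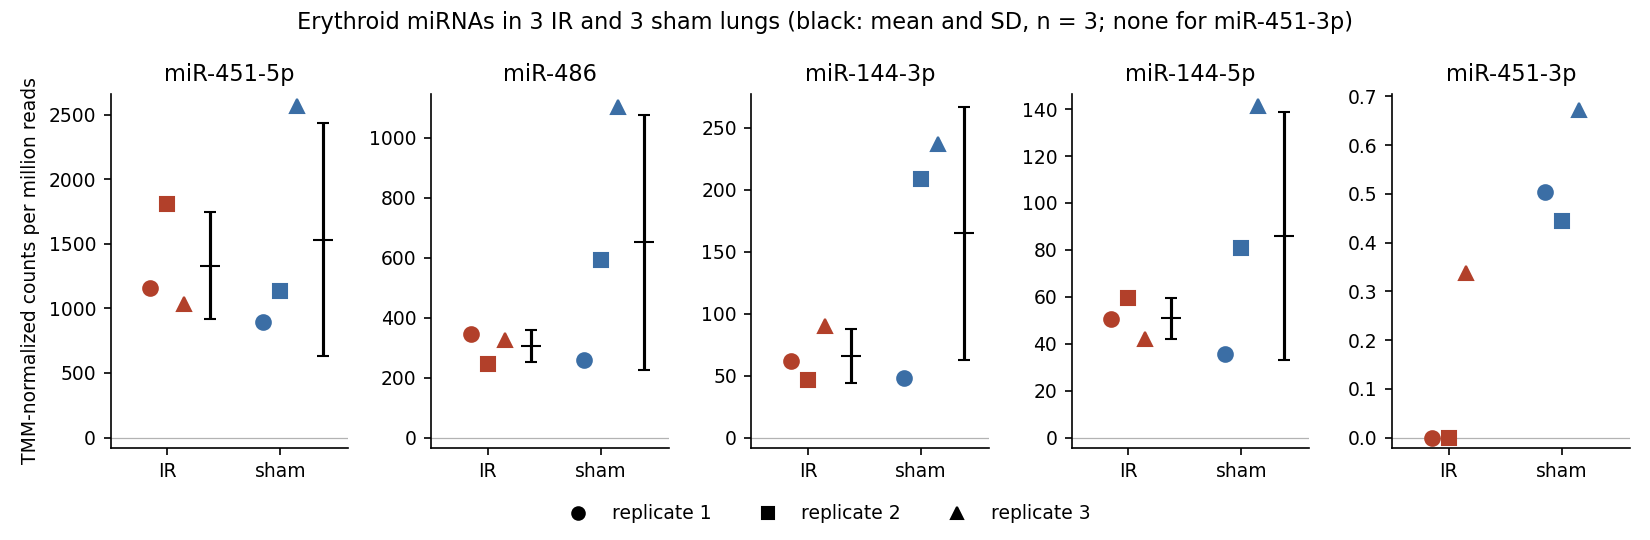
TMM-normalized CPM (vertical axes, each panel on its own scale from 0) of the 5 miRNAs in 3 IR and 3 sham lungs. Each point is a library, and black bars are the mean and SD (n = 3), which are not drawn for miR-451-3p. For miR-486 and miR-144-3p sham replicate 1 (258 and 48.4 CPM) sits with the IR lungs, and sham replicates 2 and 3 sit above all IR lungs.

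miR-451-3p, the strand opposite miR-451-5p, was near the limit of detection. It had 0, 0 and 4 reads in the IR libraries, against 4, 5 and 6 reads in the sham libraries, and the 4 IR reads came from the deepest library. In IR replicates 1 and 2 the 0 reads allow a level of up to 0.476 and 0.795 TPM. The ratio of reads summed over the groups, after division by the group totals, was 0.356 (95% exact interval 0.0860 to 1.12, counting error only), and the miRNA had too few reads for the test. It made up 0.0275% of the reads of both miR-451 arms over all libraries (19 of them against 69071, 95% exact interval 0.0166% to 0.0429%). In miR-144, by contrast, the 3p arm made up 65.0% (6499 reads against 3502 of the 5p arm, 95% exact interval 64.0% to 65.9%, counting error only). By library this share ran from 44.0% in IR replicate 2 to 72.1% in sham replicate 2.

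With all libraries, 0 of the 4 tested members passed edgeR's quasi-likelihood test, where 10.5% of all tested miRNAs passed, 7.89% as higher and 2.63% as lower after IR. With library totals that leave out miR-21-5p, 34 miRNAs were higher and 24 lower, against 33 and 11 with TMM, and still 0 of the members passed. All 4 log2 fold changes were below 0, as were 51.2% of all tested, and their median was -0.93 against -0.01 over all tested. At an unadjusted p under 0.05, miR-144-3p and miR-486 were lower, as were 12.2% of all tested miRNAs (26.3% in either direction). Both limma tests, DESeq2 and the likelihood ratio test of edgeR also called 0 of the 4, with adjusted p from DESeq2 of 0.0511 for miR-144-3p and 0.0716 for miR-486, the lowest of 11 other settings that ran up to 0.301 and 0.327. In whole lung, fewer red cells and less of a miRNA per red cell cannot be told apart.

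The result turned on sham replicate 1. Without it, 3 of the 4 members passed as lower after IR, where 2.89% of the 450 miRNAs then tested did and 9.78% passed in either direction. The log2 fold changes were then -1.76 for miR-144-3p, -1.46 for miR-486 and -1.13 for miR-144-5p, with adjusted p of 0.0120, 0.0164 and 0.0427 from edgeR. Over all fits with 1 library left out, the adjusted p from edgeR ran up to 0.364, 0.435 and 0.783 for these miRNAs in the same order. miR-451-5p did not pass in that fit either, at -0.46 (adjusted p = 0.488 from edgeR, and 0.424 to 0.988 over the fits with 1 library left out). Both arms of miR-144 come from a single hairpin, and miR-451-5p from the same transcript, so the 4 members are not independent of each other. The fits for miR-144-5p were added after seeing the data. No label sets sham replicate 1 apart from the other sham lungs, and its read total of 7459979 was the lowest of the 3. Without sham replicate 3 the values were -0.96 for miR-144-3p, -0.48 for miR-486 and -0.21 for miR-144-5p, and 0 passed edgeR's test.

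**Figure D2:**
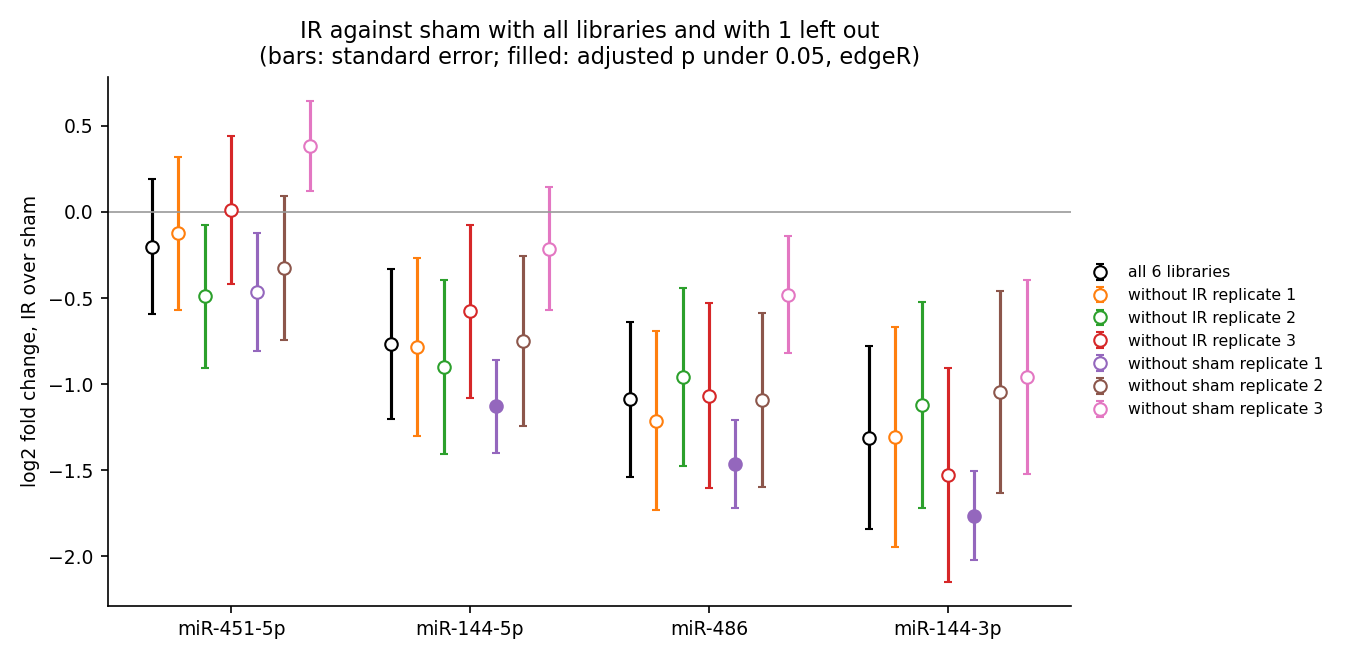
The 4 tested miRNAs along the horizontal axis, with the log2 fold change of IR over sham on the vertical axis and its standard error as bars, with all 6 libraries in black and with 1 library left out in color. Filled points passed edgeR's test and stand for the fits without sham replicate 1, at -1.13, -1.46 and -1.76.

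The erythroid miRNAs varied between sham lungs far more than most miRNAs did. Among the 277 tested miRNAs with a mean of at least 10 CPM, the highest sham lung exceeded the lowest by a median of 1.36-fold. For miR-144-3p this ratio was 4.91, for miR-486 4.28, for miR-144-5p 3.95 and for miR-451-5p 2.88. In order of that ratio they stood at positions 3, 5, 6 and 11 of 277. All 4 had sham replicate 1 as the lowest and sham replicate 3 as the highest sham lung. Sham replicate 1 was lowest for 37.5% of the 277 miRNAs and sham replicate 3 highest for 39.7%. Between IR lungs the ratios were smaller, at 1.92 for miR-144-3p, 1.74 for miR-451-5p, and 1.41 for both miR-144-5p and miR-486, where the median of the 277 was 1.28. The same 4 miRNAs stood at positions 18, 35, 86 and 89 there.

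Summed over the 5 names, the level was 1614, 2155 and 1493 CPM in the IR lungs, against 1234, 2019 and 4048 CPM in the sham lungs. The IR lungs fell inside the sham range. The mean was 1754 ± 353 CPM in IR and 2434 ± 1452 CPM in sham (SD, n = 3 each). On the log2 scale the IR mean minus the sham mean was -0.32, with a pooled SD between lungs of 0.64, and it was 0.13 without sham replicate 3. As miR-451-5p gave 56.3% to 83.7% of the summed reads in a library, the sum mostly follows miR-451-5p.

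**Figure D3:**
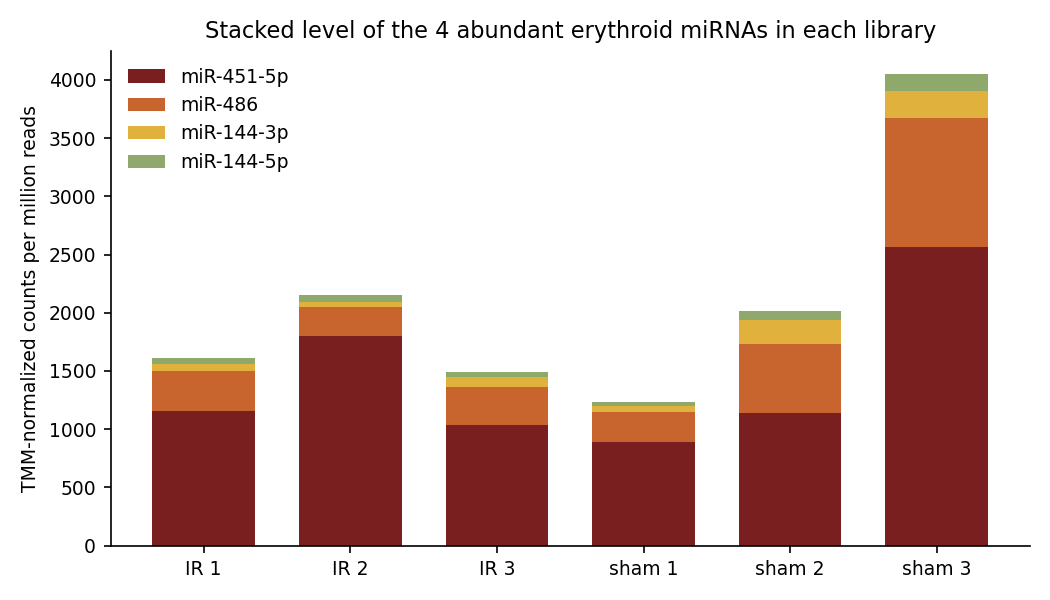
TMM-normalized CPM of miR-451-5p, miR-486, miR-144-3p and miR-144-5p stacked for each library (vertical axis from 0, horizontal axis the 6 libraries). The tallest column is sham replicate 3 and the shortest is sham replicate 1, with the 3 IR libraries between them.

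Ratios within a library do not depend on the scaling between libraries, and they showed that the members did not keep a fixed proportion. There were 18.6, 38.6 and 11.5 reads of miR-451-5p per read of miR-144-3p in the IR lungs, against 18.4, 5.45 and 10.8 in the sham lungs. IR replicate 2 was highest and sham replicate 2 lowest, and the other 4 lungs overlapped. The difference of the group means was 0.98 on the log2 scale (exact permutation test, two-sided, p = 0.2, adjusted p = 0.45 over 3 ratios), and the smallest p that 3 against 3 lungs allow is 0.1. Both miRNAs come from the same transcript.

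There were 0.298, 0.136 and 0.316 reads of miR-486 per read of miR-451-5p in the IR lungs, against 0.289, 0.520 and 0.430 in the sham lungs. Sham replicate 1 lay among the IR lungs here too. The log2 difference was -0.78 (exact permutation test, two-sided, p = 0.3, adjusted p = 0.45). miR-486 per read of miR-144-3p spanned a narrower range, at 5.56, 5.24 and 3.64 in the IR lungs, against 5.33, 2.83 and 4.64 in the sham lungs, with a log2 difference of 0.20 (exact permutation test, two-sided, p = 0.6, adjusted p = 0.6) that was -0.072 without sham replicate 2.

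The balance of the miR-144 arms also differed between lungs, a comparison chosen after its values were seen and given with no test. There were 1.23, 0.785 and 2.13 reads of miR-144-3p per read of miR-144-5p in the IR lungs, against 1.35, 2.58 and 1.68 in the sham lungs. IR replicate 2 was the lung in which the 5p arm had more reads, with 44.0% of the arm reads on miR-144-3p (95% exact interval 38.9% to 49.2%, 373 reads), and it was also the library with the lowest total. Sham replicate 2 had 72.1% on miR-144-3p (95% exact interval 70.5% to 73.6%).

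**Figure D4:**
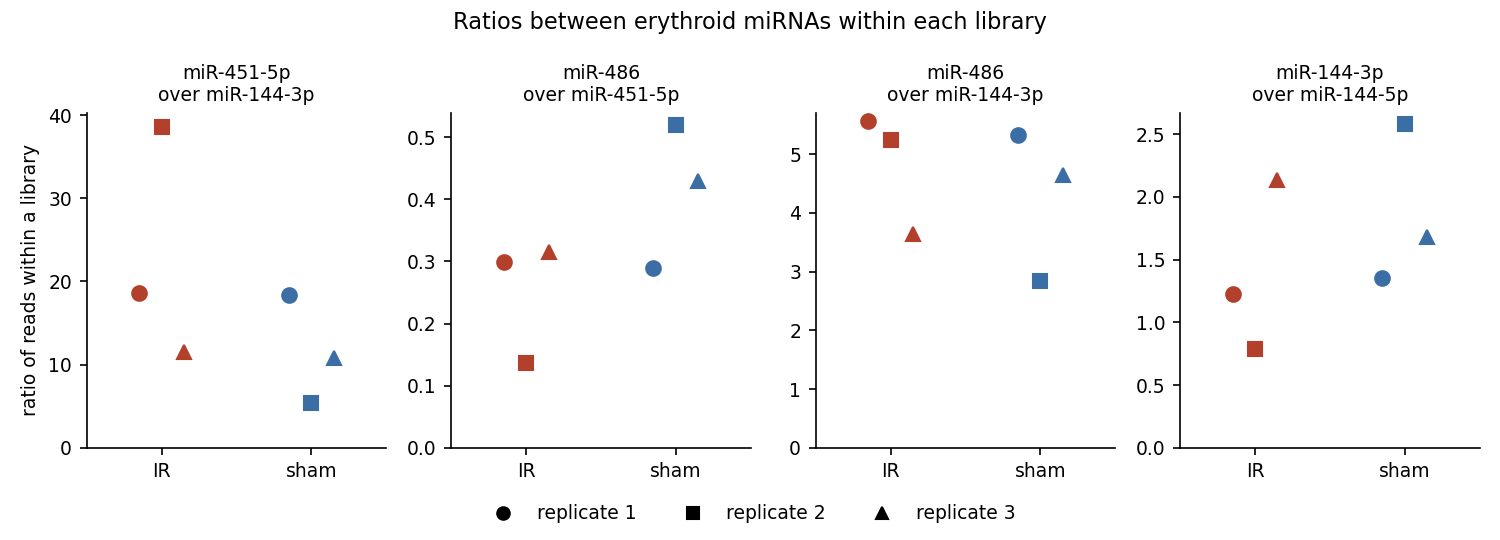
Ratio of reads of 2 erythroid miRNAs within each library (vertical axes from 0, each panel on its own scale) in 3 IR and 3 sham lungs, 1 point per library. IR replicate 2 stands out at 38.6 reads of miR-451-5p per read of miR-144-3p and 0.136 of miR-486 per read of miR-451-5p, and the groups overlap in all 4 panels.

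Profiles over the 6 libraries were compared by the root mean square difference of log2(CPM + 1), each profile centred on its own mean, so that 0 means an equal pattern. It is a description over 6 libraries. Between the members it was smallest for miR-144-5p and miR-486, at 0.32, followed by miR-144-3p and miR-486 at 0.34 and miR-144-5p and miR-451-5p at 0.35. miR-451-5p and miR-144-3p were farthest apart, at 0.86. Out of 276 candidates, the pattern most like miR-144-3p was that of miR-486, followed by miR-142-5p (0.55), miR-144-5p (0.55), miR-150-3p (0.56) and miR-128-3p (0.57). The profiles nearest to miR-486 were the arms of miR-144, then miR-150-3p (0.44), miR-142-5p (0.45) and miR-15b-3p (0.46). Those nearest to miR-144-5p were miR-486, miR-451-5p, miR-340-5p (0.37), miR-21-5p (0.39) and miR-363-3p (0.41). miR-451-5p had as its nearest miR-21-5p (0.30), then miR-140-5p (0.33), miR-340-3p (0.35), miR-144-5p (0.35) and miR-148b-5p (0.35). miR-21-5p and miR-451-5p are both highest in sham replicate 3.

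Other miRNAs that red cells or reticulocytes hold are also made by many lung cells. Their list of 7 tested miRNAs summed to 5779 to 7532 CPM in the IR lungs, against 6108 to 7404 CPM in the sham lungs, and its median log2 fold change was -0.13. It had 1 miRNA lower and 0 higher by edgeR, where 2.63% and 7.89% of all tested miRNAs were. That was miR-92a-3p, at 709 ± 20.6 CPM in IR and 1172 ± 128 CPM in sham (SD, n = 3 each, log2 fold change -0.73, adjusted p = 0.0203 from edgeR). miR-16-5p, abundant in red cells and in many other cells, was at -0.26, miR-25-3p at -0.13 and miR-182 at 0.46 without passing. At an unadjusted p under 0.05 from edgeR, 2 of the 7 were lower and 0 higher, where 12.2% and 14.1% of all tested miRNAs were. The second was miR-363-3p, the least abundant of the 7, named after its values were seen. It was at 34.0 ± 4.94 CPM in IR and 67.5 ± 25.3 CPM in sham (SD, n = 3 each, log2 fold change -0.99, adjusted p = 0.0647 from edgeR). Its groups did not overlap, where 16.7% of all tested miRNAs were lower without overlap. miR-183-5p was at 0.06 and miR-96-5p at 0.22 without passing. Of the 4 miRNAs known to fall as erythroid cells mature, miR-221-3p was at -0.23, miR-222-3p and miR-155-5p were at 0.24 each, and miR-150-5p was lower. The list's median was 0.01, and it summed to 1620 to 1720 CPM in IR lungs, against 2226 to 2397 CPM in sham lungs. Without miR-150-5p, the other 3 summed to 685 to 1025 CPM in IR lungs, against 747 to 895 CPM in sham lungs, and the groups overlapped.

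White cells also come with blood. The myeloid and leukocyte list, miR-223-3p, miR-142-3p and miR-142-5p, summed to 1267 to 1543 CPM in the IR lungs, against 1678 to 2763 CPM in the sham lungs, with no overlap. Its log2 fold changes were -0.78, -0.67 and -0.61 in that order, and 0 of 3 passed edgeR's test. At an unadjusted p under 0.05 from edgeR, 2 of the 3 were lower, as were 12.2% of all tested miRNAs. Of these 3, miR-142-3p had groups that did not overlap, where 16.7% of all tested miRNAs were lower without overlap and 34.0% did not overlap in either direction. In the lymphocyte list miR-150-5p, which the list of miRNAs that fall in maturation also holds, was lower, at 855 ± 139 CPM in IR and 1454 ± 67.0 CPM in sham (SD, n = 3 each, log2 fold change -0.77, adjusted p = 0.0229 from edgeR), and miR-342-3p was at -0.13. The list summed to 960 to 1145 CPM in IR lungs, against 1678 to 1743 CPM in sham lungs, with a median of -0.45. Taken alone, miR-342-3p was at 197 to 265 CPM in IR lungs, against 195 to 301 CPM in sham lungs. Sham replicate 1, where the erythroid miRNAs were lowest among sham lungs, was lowest for 3 of these 5 white cell miRNAs, including both miR-142 arms. It was lowest for 37.5% of the 277 miRNAs with a mean of at least 10 CPM. There miR-142-5p was at 984 CPM, within the IR range of 763 to 1122 CPM, against 1708 and 1588 CPM in sham replicates 2 and 3. miR-142-3p was at 269 CPM there, against 286 and 395 CPM, and miR-150-5p at 1378 CPM, against 1483 and 1502 CPM. miR-223-3p was at 425 CPM there, against 316 and 780 CPM, and miR-342-3p was at 301 CPM, against 195 and 241 CPM. The part of white cells in the erythroid values was not tested.

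miR-486 is also a muscle miRNA, and the 7 members of the striated muscle list summed to 146 to 198 CPM in the IR lungs, against 139 to 173 CPM in the sham lungs. Of the 5 tested, miR-1-3p was higher, at 31.2 ± 3.52 CPM in IR and 12.5 ± 1.68 CPM in sham (SD, n = 3 each, log2 fold change 1.31, adjusted p = 0.0138 from edgeR). miR-3571, which is not in the list, had nearly the same means, at 31.1 CPM in IR and 12.5 CPM in sham. Whether miR-1-3p and miR-3571 share reads was not tested. miR-1b, also outside the list, was more abundant, at 464.8 CPM in IR and 485.9 CPM in sham. It did not pass (log2 fold change -0.06, adjusted p = 0.788 from edgeR). miR-499-5p was at 0.06, miR-133a-3p at -0.01 and miR-206-3p at -0.47 without passing, and the list's median was 0.05. The heart miRNAs miR-208a-3p and miR-208b-3p had 1 and 2 reads in all. The part of muscle in the values of miR-486 was not tested.

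The endothelial, smooth muscle and epithelial lists each summed to far more than the erythroid miRNAs did. Endothelial and platelet miR-126a, both arms, summed to 83153 to 105378 CPM in IR lungs, against 88065 to 111213 CPM in sham lungs, with a median log2 fold change of -0.02. Smooth muscle miR-143-3p and miR-145-5p summed to 140617 to 160580 CPM in IR lungs, against 133196 to 162556 CPM in sham lungs, with a median of 0.02. In both lists 0 of 2 miRNAs passed edgeR's test, also at an unadjusted p. The epithelial list of 5 from the miR-200 family was at 18672 to 19222 CPM in IR lungs, against 12889 to 15882 CPM in sham lungs, with 0 called by edgeR, 2 higher at an unadjusted p (miR-200b-3p at 0.55 and miR-200a-3p at 0.34), as were 14.1% of all tested miRNAs, and a median of 0.28. Liver miR-122-5p, a tracer of plasma RNA, was at 9.21, 5.42 and 5.81 CPM in IR lungs, against 0.630, 0.621 and 6.61 CPM in sham lungs, with a log2 fold change of 1.39 (adjusted p = 0.314 from edgeR). The part of these cells in the erythroid values was not tested.

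**Figure D5:**
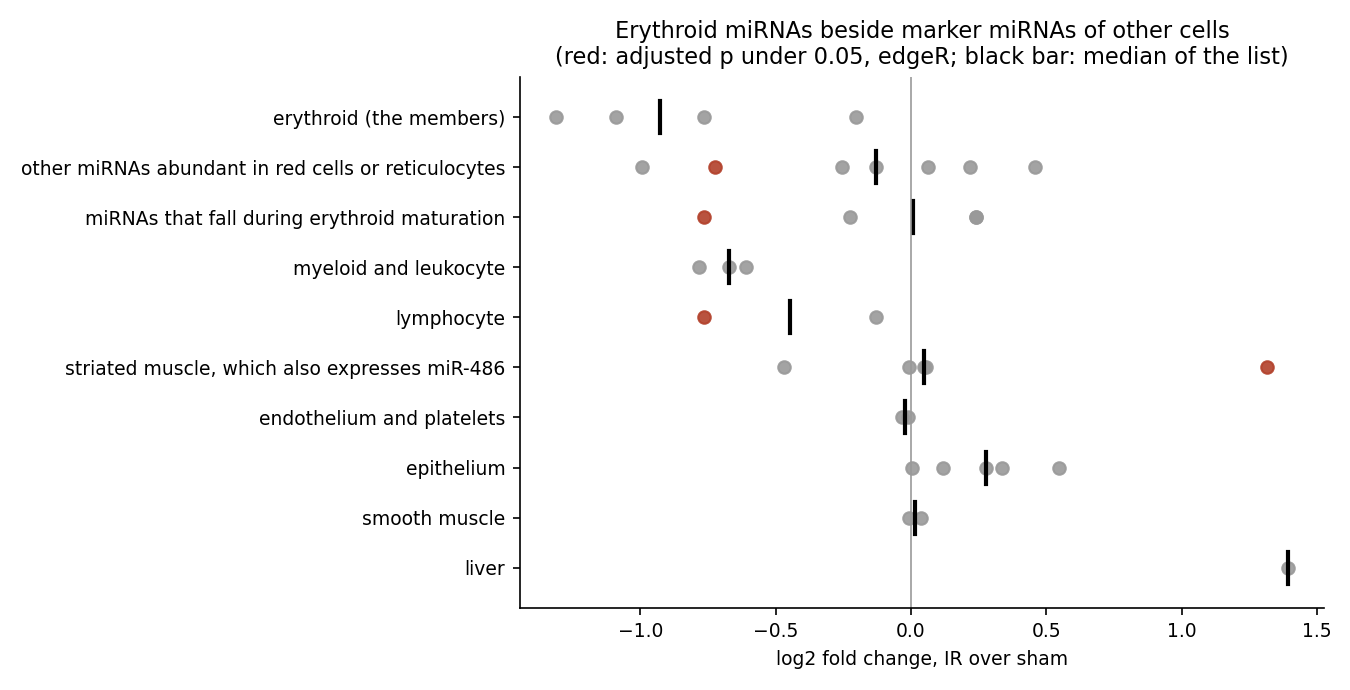
The erythroid group and 9 marker lists from top to bottom, with every tested miRNA as a point at its log2 fold change of IR over sham (horizontal axis, n = 3 libraries in each group). Points in red passed edgeR's test and black bars are medians, which are -0.93 for the erythroid group, -0.67 for the myeloid and leukocyte list and 0.28 for the epithelial list.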

How the data were processed

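Each library was deposited as raw read counts and as TPM in a shared table, and the TPM values proved to be counts scaled to a sum of 1000000 without a length term. The submitters' processing notes name Bowtie, and its settings, the genome build, the miRNA annotation and the rule for reads that match several miRNAs were not given in the sources used here. Groups came from the sample titles, and the study treats same-group lungs as biological replicates.

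The deposited counts went into edgeR 4.0.16 under R 4.3.3 (filterByExpr with minimum count 10 and minimum total 15, TMM, quasi-likelihood test, Benjamini-Hochberg over 418 miRNAs), after the code was tested on simulated counts. Alternatives used limma 3.58.1 and DESeq2 1.42.0. A standard error is the log2 fold change over the square root of F. Hairpins were folded with RNAfold 2.7.2, and figures drawn in Python 3.11.15 with matplotlib 3.10.9. No other listed name had counts within 5% or 2 reads of a member in every library.

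The members and lists were chosen with earlier results of these data known. The text names all members, the 5 profiles nearest each member, and up to 4 of the most abundant miRNAs of a list. It also names miR-363-3p, miR-183-5p, miR-96-5p, miR-3571, miR-1b, miR-484, miR-223-5p, miR-3556a and the heart miRNAs with 1 and 2 reads. The alternatives were 4 other scalings, 2 filters, 4 other tests, the replicate number as a block, reads + 1 in ratios and leaving out each library. Every fit for miR-144-5p was added after seeing the data. Reads carry no molecular identifiers, and the exact intervals on reads cover counting error only. Intervals of log2 fold changes come from edgeR's standard error and include the spread between lungs.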

Additional observations from a re-analysis of the deposited data

How the results depend on the processing

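With 1 library left out, the log2 fold change ran from -1.76 to -0.96 for miR-144-3p, -1.13 to -0.21 for miR-144-5p, -1.46 to -0.48 for miR-486 and -0.49 to 0.38 for miR-451-5p, which lay above 0 without sham replicate 3 (0.38) and without IR replicate 3 (0.01). The first 3 passed without sham replicate 1. Under the 11 other settings all 4 stayed below 0 and 0 passed, with adjusted p from 0.0511 (DESeq2, miR-144-3p) to 0.959. miR-486 over miR-144-3p was -0.072 (log2, IR minus sham) without sham replicate 2, and ran up to 0.39 with another library left out. miR-451-5p over miR-144-3p ran from 0.51 to 1.40 and miR-486 over miR-451-5p from -1.01 to -0.39. The summed level ran from -0.72 to 0.13.

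Over all miRNAs the 44 calls became 26 with 10 reads in every library and 69 with DESeq2, and 2 to 57 with 1 library left out (17 without IR replicate 2, 24 without IR replicate 1, 21 if sham replicate 3 was dropped and 2 if IR replicate 3 was). With totals that leave out miR-21-5p, 24 of 58 calls were lower, against 11 of 44 with TMM. With the replicate number as a block, edgeR called 0 (84 at an unadjusted p under 0.05), and log2 fold changes were -1.09 for miR-144-3p, -0.89 for miR-486, -0.56 for miR-144-5p and -0.07 for miR-451-5p. The numbers do not pair the samples by any label, and the deviations of same-numbered libraries correlated at -0.25, -0.45 and -0.26, so that 0 of 3 IR libraries correlated best with their own number. The cause of these changes was not tested. With 3 lungs per group, standard errors from edgeR were 0.39 to 0.53 (log2) for the tested members, and 19 reads in all limited miR-451-3p.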

Other observations

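Outside the comparison of IR with sham, the miRNAs with the widest range between the 3 sham lungs at a mean of at least 10 CPM were not all erythroid. miR-484 ranged 5.77-fold, with sham replicate 1 highest, and miR-223-5p, an arm of the neutrophil miRNA miR-223, ranged 5.12-fold, with sham replicate 3 highest and sham replicate 2 lowest. These names were chosen after their values were seen. Of the 12 widest, the 4 erythroid miRNAs and miR-3556a had sham replicate 1 as the lowest sham lung.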
